A study of Arabidopsis thaliana with 30 samples.

Results

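Leaves of an Arabidopsis thaliana line that overexpresses the transcription factor WRKY40 (line OE_WRKY40.4) were compared with leaves of a line in which WRKY40 is knocked out (Atwrky40 KO), each with and without high light. These are 12 of the 30 Affymetrix ATH1 arrays of the series, chosen by sample title. There were 3 arrays in each of 4 groups: knockout untreated, overexpressor untreated, knockout after high light and overexpressor after high light. Plants were grown on soil for 21 days, and the treated plants received high light for 1 h at 1000 µE per square metre per second before freezing. No wild-type array entered these values, so a difference between the lines does not say which line departed from wild type. The labels give neither the accession in which the knockout was made nor the promoter that drives WRKY40, and each genotype is represented by 1 line. The labels do not say whether the 3 samples of a group came from separate plants, so each p-value reflects sample spread that may be technical only.

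WRKY proteins are plant transcription factors that bind a short DNA element, the W-box, through a domain named after its conserved residues. WRKY40 acts mainly as a repressor. With its close relatives WRKY18 and WRKY60 it is known for restraining defence genes, and it is also known to repress nuclear genes that respond to stress in mitochondria and chloroplasts. The overexpressor and the knockout carry opposite changes of WRKY40 by their labels. The probe sets of WRKY40, WRKY18 and WRKY60 have no name in the annotation used, so the genotypes were not checked on the targeted transcript.

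The arrays fell apart first by light and then by line. The first principal component of the log2 signals held 55.7% of the variance and separated the 6 high light arrays from the 6 untreated ones. The second held 21.0% and separated the lines, with the knockout arrays at 32.4 to 42.8 and the overexpressor arrays at -42.9 to -30.3. Within a group the log2 signals of the arrays correlated at 0.946 to 0.979, and no arrays held identical values. Overexpressor high light replicate 1 differed from its 2 companions for several genes given below, and the range with single arrays left out is given for calls that were lost. The log2 ratio of the 3' to the 5' GAPDH probe set, a sign of RNA quality, was 0.501 to 0.726 in the knockout and 0.894 to 1.02 in the overexpressor after high light, without overlap. In untreated leaves it was 1.18 to 1.40 and 1.02 to 1.35. The same ratio for actin overlapped after high light, at 2.80 to 2.90 in the knockout and 2.74 to 3.09 in the overexpressor. The part of RNA quality in the high light differences was not tested. RCA, the activase of Rubisco and a mesophyll marker, was among the brightest leaf transcripts, at 28444, 26503 and 29972 in the untreated knockout and 30678, 25909 and 24035 in the untreated overexpressor, and was not called (log2 -0.10 ± 0.10, limma adjusted p = 0.478).

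The lines differed across much of the leaf transcriptome, in both directions alike. limma called 4017 of 15922 probe sets over both lights at a Benjamini-Hochberg adjusted p under 0.05, which is 25.2%. Of these, 2002 were higher in the overexpressor (12.6%) and 2015 were lower (12.7%). All differences are overexpressor minus knockout on the log2(signal + 1) scale, with limma's standard error (SE). At least 2-fold differences were called for 565 probe sets higher and 406 lower in the overexpressor. At least 16-fold differences were lopsided, with 24 higher and 2 lower. The median over all probe sets was -0.03. Of the 4017 probe sets, 2155 name a single gene, and the genes described here come from those.

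The largest differences concerned genes with a strong signal in either line and a signal near the bottom of the scale in the other. AOP3 (AT4G03050), a dioxygenase that makes hydroxypropyl glucosinolates from their methylsulfinyl precursors, gave signals of 8653, 7928 and 8879 in the untreated knockout and 11.9, 24.1 and 20.0 in the untreated overexpressor. After high light it gave 3114, 3239 and 3259 in the knockout and 3.90, 18.8 and 34.6 in the overexpressor. Every overexpressor array lay below 48.7, the mean signal under which a probe set was left out of the tests, and every knockout array lay far above it. The difference was -8.27 ± 0.36 over both lights (limma adjusted p = 4.76e-09), and -7.29 with a pseudocount of 16.

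AT2G25450, a member of the list of aliphatic glucosinolate genes, ran the other way. Its signals were 10.3, 46.6 and 39.9 in the untreated knockout and 3927, 3309 and 3489 in the untreated overexpressor. After high light they were 3.06, 17.7 and 16.7 in the knockout and 1391, 3095 and 1699.5 in the overexpressor. The groups were apart in both lights, and the difference was 7.23 ± 0.42 (adjusted p = 9.07e-08), or 6.23 with a pseudocount of 16. Aliphatic glucosinolates are sulphur-containing defence compounds made from methionine. AOP3 and AT2G25450 were also the 2 measured members of a list of 15 genes known to differ in leaf expression between natural accessions, and whether the lines differ in accession at these genes was not tested. The other 2 aliphatic glucosinolate genes with a probe set showed little. BCAT4, the aminotransferase that opens methionine chain elongation, was at 11029 ± 2057 (SD, n = 3) in the untreated knockout and 8696 ± 1757 in the untreated overexpressor, a difference of -0.37 ± 0.11 over both lights (adjusted p = 0.0227), which lost its call without any 1 of 2 arrays (knockout untreated replicate 3 and overexpressor untreated replicate 3), with -0.45 to -0.30 over the arrays left out. AT2G31790 had 0.08 ± 0.09 (adjusted p = 0.548).

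**Figure D1:**
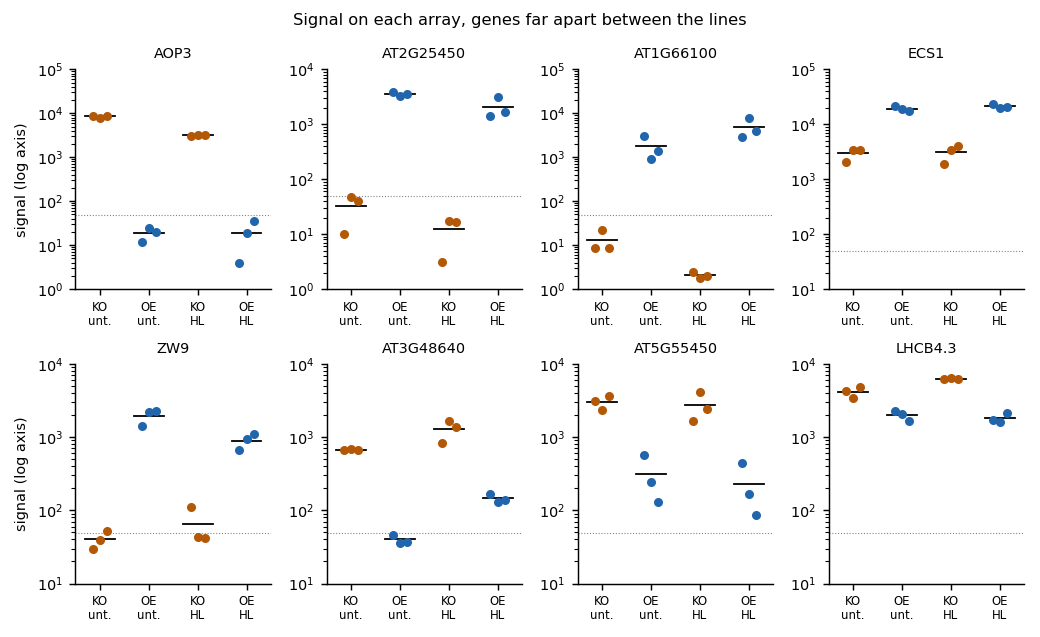
Signal of each array on a log axis for 8 genes in the 4 groups (KO, knockout; OE, overexpressor; unt., untreated; HL, high light); points are arrays, black bars are means of 3, and the dotted line is the filter signal of 48.7. AOP3, AT3G48640, AT5G55450 and LHCB4.3 are lower in the overexpressor in both lights, and AT2G25450, AT1G66100, ECS1 and ZW9 are higher, with no overlap between the lines.

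AT1G66100 differed most of all named genes. It gave 8.79, 21.9 and 8.79 in the untreated knockout and 3051, 923 and 1366 in the untreated overexpressor. High light arrays gave 2.39, 1.76 and 1.98 in the knockout and 2889, 7661 and 3955 in the overexpressor, the difference over both lights being 8.72 ± 0.32 (adjusted p = 1.25e-09). The knockout signals were near the bottom of the scale, and a pseudocount of 16 reduced the difference to 6.87. AT2G25510 reached 26768, 27434 and 21214 in the untreated overexpressor, among the brightest signals on those arrays, against 103, 135 and 170.4 in the untreated knockout. AT3G22240 was as sharply divided, at 28843, 26183 and 22694 in the overexpressor against 312, 207 and 239 in the knockout. Their differences over both lights were 7.97 ± 0.16 and 6.61 ± 0.10, and both pairs of groups were apart after high light as well. The other genes among the 10 largest were AT1G76960 (7.25), AT5G45500 (5.46), AT2G01090 (5.34), AT3G43740 (5.23), AT4G19500 (5.06) and ZW9. ZW9 (AT1G58270) was at 29.2, 39.6 and 51.6 in the untreated knockout against 1398, 2182 and 2269 in the untreated overexpressor. The treated leaves gave 109, 43.0 and 41.5 in the knockout against 657, 936 and 1086 in the overexpressor. The lines were closer after high light, and the groups did not overlap. The difference of responses was -1.68 ± 0.49 (adjusted p = 0.193).

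AT3G48640 was among the genes lower in the overexpressor. It gave 672, 688 and 663 in the untreated knockout against 46.5, 36.3 and 37.3 in the untreated overexpressor. With high light the signals were 829, 1651 and 1357 in the knockout against 167, 131 and 138 in the overexpressor. Both lines were brighter after high light and stayed apart, with a difference of -3.56 ± 0.15 (adjusted p = 4.59e-09). AT5G55450 varied more between arrays, from 3066, 2307 and 3676 in the untreated knockout to 577, 244 and 131 in the untreated overexpressor. Under high light it was at 1672, 4107 and 2409.8 in the knockout and 441, 169 and 86.8 in the overexpressor, and the difference was -3.62 ± 0.40 (adjusted p = 2.38e-05). The groups of AT5G55450 did not overlap in either light, as the rule for naming these genes required. The other genes among the 10 lowest were AT5G12940 (-3.56), AT1G50290 (-3.41), AT4G11000 (-3.16), AT5G15360 (-3.07), AT3G59845 (-3.02), AT1G13470 (-2.71) and AT1G10110 (-2.53). All 20 genes named by this rule were still called when any 1 array was left out and they passed the filter.

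Among genes with a symbol of their own, 70 were called at least 2-fold over both lights with a mean of at least 200 in some group, 44 higher and 26 lower in the overexpressor. The groups of 54 of the 70 did not overlap in either light, and 63 were called whichever array was left out. Over all probe sets the groups were apart for 31.6% in untreated leaves, for 34.2% after high light and for 15.1% in the same direction in both. The 70 were chosen by call and size on these same arrays, so their larger share follows in part from that choice. The genes in the next paragraphs were picked from these 70 for what they are known to do, after their values were seen.

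Defence-related transcripts stood on both sides. ECS1, a cell wall protein, gave 2041, 3388 and 3444 in the untreated knockout and 21449.7, 18926 and 17645 in the untreated overexpressor (2.79 ± 0.18 over both lights, adjusted p = 2.07e-07). After high light it was at 1888, 3446 and 4092 in the knockout and 23104, 19850.1 and 20793 in the overexpressor. THI2.2, a thionin or antimicrobial peptide, was higher by 2.52 ± 0.38, and CSA1, an immune receptor of the nucleotide-binding type first found through shade avoidance, by 3.48 ± 0.22. CSA1 was at 53.0, 28.0 and 26.3 in the untreated knockout, below or near the filter signal, and at 367, 324 and 294 in the untreated overexpressor. Lower in the overexpressor were LOV1, another nucleotide-binding receptor (-1.16 ± 0.15), and RING1, a ubiquitin ligase of the cell death response (-1.17 ± 0.13). RING1 was at 1895, 1915 and 2193 in the untreated knockout against 700.4, 803 and 641 in the untreated overexpressor, and at 2307, 3189 and 2578 in the knockout against 2016, 1342 and 1209.7 in the overexpressor after high light. Its groups came close after high light without overlapping. CHI, a chitinase, was at 1588, 772 and 1280.2 in the untreated knockout and 161, 298 and 13.5 in the untreated overexpressor, but its groups overlapped after high light, at 318, 628 and 411 in the knockout and 544, 279 and 377 in the overexpressor. Its difference of -1.94 ± 0.56 over both lights (adjusted p = 0.0224) lost its call without knockout untreated replicate 1, with -2.38 to -1.29 over the arrays left out.

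The salicylate defence list held 23 genes, and both of the 2 with a kept probe set were called lower over both lights, against 12.7% of all probe sets. The call of SAG101 (-0.55 ± 0.17) was lost with no filter (adjusted p = 0.0603) and with all 30 arrays (adjusted p = 0.0643), which leaves 1 of the 2. It was also lost without any 1 of 8 arrays (all but knockout high light replicate 1, knockout untreated replicate 3, overexpressor high light replicate 1 and overexpressor untreated replicate 2), with -0.64 to -0.45 over the arrays left out. GRX480, a glutaredoxin induced by salicylate, gave 189.7, 182 and 264 in the untreated knockout and 77.7, 112 and 67.0 in the untreated overexpressor. After high light it gave 674, 1111 and 789.6 in the knockout and 374, 754 and 445 in the overexpressor. The groups were apart in untreated leaves and overlapped after high light, and the difference was -1.03 ± 0.20 over both lights (adjusted p = 0.00189). SAG101, a partner of the immune regulator EDS1, was at 198, 164 and 147 in the knockout and 62.8, 107 and 88.5 in the overexpressor in untreated leaves. Its difference was -0.99 ± 0.24 in untreated leaves (adjusted p = 0.016) and -0.11 ± 0.24 after high light (adjusted p = 0.817). The untreated call of SAG101 was lost without any 1 of 2 arrays (knockout untreated replicate 1 and overexpressor untreated replicate 1), with -1.16 to -0.78 over the arrays left out. None of 3 measured genes of jasmonate synthesis and response was called over both lights. Their differences were -0.79 for THI2.1, -0.44 for the defensin PDF1.2 and 0.43 for OPCL1, an enzyme of jasmonate synthesis.

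Of 42 WRKY genes on the family list 7 had a named probe set and 5 passed the filter. None of the 5 was called higher and 2 were called lower in the overexpressor, against 12.6% higher and 12.7% lower over all probe sets. WRKY53, a regulator of leaf senescence, gave 145, 135 and 178 in the untreated knockout and 76.7, 93.5 and 72.7 in the untreated overexpressor. After high light it was at 389, 1008 and 621 in the knockout and 198, 231 and 264 in the overexpressor. The groups were apart in both lights, and the difference of -1.17 ± 0.20 (adjusted p = 0.000679) was called whichever array was left out. ZAP1, also known as WRKY1, had -0.39 ± 0.13 (adjusted p = 0.0394), which lost its call without any 1 of 8 arrays (all but knockout high light replicate 2, knockout untreated replicate 3, overexpressor high light replicate 1 and overexpressor untreated replicate 1), with -0.48 to -0.31 over the arrays left out. WRKY20 (-0.10), WRKY22 (-0.02) and WRKY47 (-0.16) were not called.

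Mitochondrial stress genes are nuclear genes that respond when respiration is disturbed, and of the 16 listed 6 had a named probe set and 4 passed the filter. None was higher in the overexpressor and 2 were lower, against 12.6% higher and 12.7% lower over all probe sets. With all 30 arrays 1 of the 4 was called lower. AT5G09570 gave 181, 141 and 149 in the untreated knockout and 65.4, 86.3 and 67.5 in the untreated overexpressor. High light arrays gave 556, 619 and 554 in the knockout and 84.2, 166 and 210.4 in the overexpressor. The overexpressor after high light lay near the level of the untreated knockout, and the difference was -1.55 ± 0.19 over both lights (adjusted p = 6.48e-05). AT5G51440 was below the filter signal in all untreated arrays but 1 and gave 20443, 17873 and 16621 in the knockout and 12903, 12719 and 13949 in the overexpressor after high light, a difference of -0.45 ± 0.09 over both lights (adjusted p = 0.00259). Fitted together with all 30 arrays it was not called (adjusted p = 0.109). NDB2, an alternative respiratory dehydrogenase for NAD(P)H, was at 1335, 1644 and 1441 in the knockout and 757, 1018 and 1039 in the overexpressor after high light. Those arrays did not overlap, but the difference there was not called (-0.66 ± 0.24, adjusted p = 0.0797). AT2G21640 had -0.08 ± 0.19 over both lights (adjusted p = 0.793), with 3371, 7055 and 7479.6 in replicates 1 to 3 of the overexpressor after high light.

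**Figure D2:**
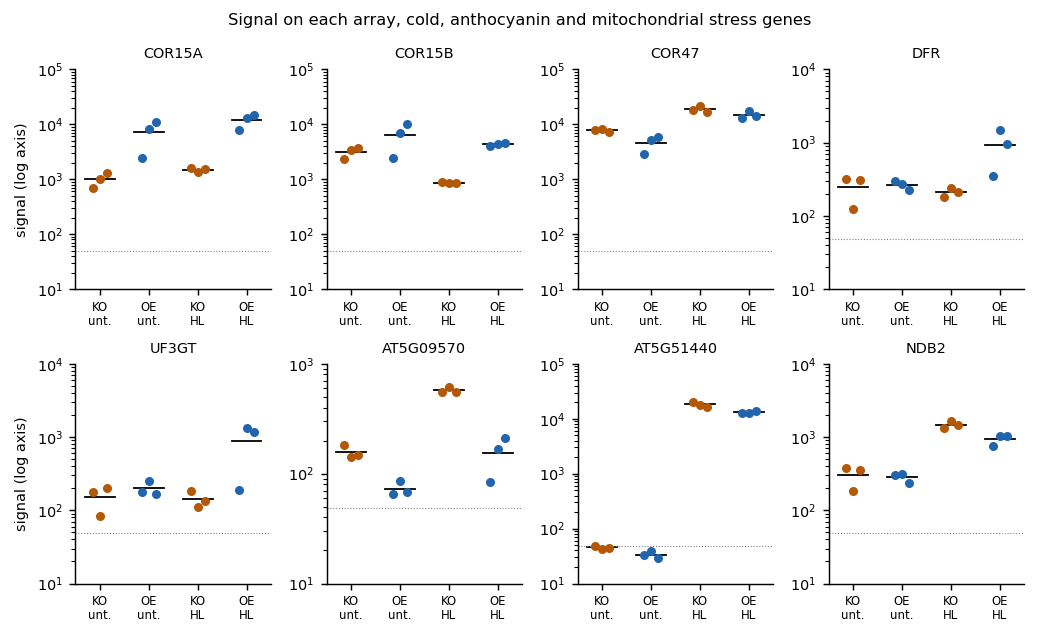
Signal of each array on a log axis for cold, anthocyanin and mitochondrial stress genes, drawn as groups of 3 arrays with black bars for the means and the filter signal dotted. COR15A is higher and AT5G09570 lower in the overexpressor in both lights; DFR and UF3GT are apart between the lines in high light alone, with overexpressor replicate 1 the lowest of its group.

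Cold and dehydration genes differed in opposite directions. COR15A (AT2G42540), a chloroplast protein that protects membranes during freezing, gave 697, 1029 and 1313 in the untreated knockout and 2423, 8191 and 11086 in the untreated overexpressor. The treated leaves gave 1611, 1381 and 1511 in the knockout and 7987, 13045 and 14718 in the overexpressor. The lowest overexpressor array was above the highest knockout array in each light, and the difference was 2.78 ± 0.31 (adjusted p = 2.38e-05). Its neighbour COR15B (AT2G42530), which encodes a similar protein, was apart between the lines after high light, at 901, 838 and 869 in the knockout and 4084, 4323 and 4509 in the overexpressor, and overlapped in untreated leaves, at 2314, 3455 and 3711 in the knockout and 2401, 6942 and 9982 in the overexpressor. Its difference was 2.31 ± 0.37 in high light (adjusted p = 0.00101) and 0.83 ± 0.37 untreated (adjusted p = 0.173). COR47, a dehydrin, was at 2934, 5121 and 5783 in the untreated overexpressor against 7843, 8355 and 7242 in the untreated knockout, without overlap. Over both lights COR47 was lower, with a difference of -0.58 ± 0.15 (adjusted p = 0.0106). COR27 and AT4G33980 were not called (0.71 and 0.36). These are the 5 of 20 listed genes with a kept probe set.

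Several genes of anthocyanin synthesis were higher in the overexpressor. The flavonoid and anthocyanin list of 24 genes left 5 with a kept probe set, of which 4 were higher over both lights, against 12.6% of all probe sets, and the median difference was 1.05. DFR, the reductase at the entry to anthocyanins, gave 183, 242 and 209.8 in the knockout and 351, 1488 and 959.6 in the overexpressor after high light. In untreated leaves it gave 315, 124 and 309 in the knockout and 299, 270.0 and 226 in the overexpressor. The groups were apart in high light, with overexpressor replicate 1 nearer to the knockout than the other two, and overlapped in untreated leaves. UF3GT, which adds a sugar to anthocyanins, followed the same order of arrays, at 186, 110.2 and 135 in the knockout and 190.1, 1312 and 1177 in the overexpressor. The high light differences were 1.91 ± 0.44 for DFR (adjusted p = 0.0106), 2.24 ± 0.58 for UF3GT (adjusted p = 0.0193) and 2.11 ± 0.51 for AT4G14090 (adjusted p = 0.0139). DFR was called in high light whichever array was left out. UF3GT lost that call without any 1 of 4 arrays (knockout high light replicates 2 and 3 and overexpressor high light replicates 2 and 3), with 1.75 to 3.14 over the arrays left out, and AT4G14090 without any 1 of 3 arrays (knockout high light replicate 1 and overexpressor high light replicates 2 and 3), with 1.75 to 2.77 over the arrays left out. Over both lights the call of DFR (1.05 ± 0.31) was lost without any 1 of 5 arrays (knockout high light replicate 1, knockout untreated replicate 2, overexpressor high light replicates 2 and 3 and overexpressor untreated replicate 1), with 0.83 to 1.35 over the arrays left out. That of UF3GT (1.34 ± 0.41) was lost with all 30 arrays (adjusted p = 0.0506), which leaves 3 of the 5, and without the variance trend (adjusted p = 0.0502). It was also lost without any 1 of 6 arrays (knockout high light replicates 2 and 3, knockout untreated replicate 2, overexpressor high light replicates 2 and 3 and overexpressor untreated replicate 2), with 1.095 to 1.79 over the arrays left out. That of AT4G14090 (1.19 ± 0.36) was lost without any 1 of 6 arrays (knockout high light replicate 1, knockout untreated replicate 2, overexpressor high light replicates 2 and 3 and overexpressor untreated replicates 1 and 2), with 0.92 to 1.52 over the arrays left out. None of these 3 had a called difference of responses to light, with 1.72 (adjusted p = 0.324), 1.79 (adjusted p = 0.448) and 1.83 (adjusted p = 0.367). AT5MAT, an anthocyanin malonyltransferase outside the list, had 1.22 ± 0.28 over both lights, with 86.9, 270.3 and 248 in the overexpressor after high light against 73.4, 42.4 and 41.7 in the knockout. UGT78D1, which adds rhamnose to flavonols, was called in untreated leaves, at 1282, 1208 and 1124 in the overexpressor against 861, 625 and 604 in the knockout (0.81 ± 0.17, adjusted p = 0.00666). UGT78D2, which adds glucose to flavonoids, was not called (-0.12 ± 0.14).

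The wider family of UDP-glycosyltransferases, enzymes that attach sugars to hormones and other small molecules, had 29 kept members. Over both lights 13 were higher and 2 lower, and the family median was 0.32. Over all probe sets 12.6% were higher and 12.7% lower, with a median of -0.03. The family was drawn up by symbol after the values were seen, as were the other families by symbol below. UGT76C1 and UGT76C2, which inactivate the hormone cytokinin by adding glucose, were among the higher ones. UGT76C1 was at 126, 127 and 95.4 in the untreated knockout against 183, 302 and 322 in the untreated overexpressor, and at 23.3, 71.2 and 41.5 in the knockout against 152, 152 and 155 in the overexpressor after high light. The groups were apart in both lights, with a difference of 1.52 ± 0.24 (adjusted p = 0.00045). UGT76C2 had 1.34 ± 0.35 (adjusted p = 0.0138) and groups that overlapped after high light. ARR15 and RR16, type-A response regulators that dampen cytokinin signalling, were picked from the genes called at least 2-fold and were higher too, and no list of cytokinin genes was tested. ARR15 gave 109.8, 109 and 171 in the untreated knockout and 398, 333 and 402 in the untreated overexpressor, a difference of 1.56 ± 0.26 in untreated leaves (adjusted p = 0.00145). RR16 had 1.05 ± 0.22 over both lights. Lower in the overexpressor was UGT73C1, which was near the bottom of the scale in untreated leaves and gave 916, 526 and 772 in the knockout and 117, 151 and 283 in the overexpressor after high light (-2.19 ± 0.45 over both lights, adjusted p = 0.00307). With a pseudocount of 16 that difference was -1.44.

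Of 11 kept beta-glucosidases 5 were higher and 2 lower in the overexpressor and 4 were not called. Over all probe sets 12.6% were higher and 12.7% lower. The higher beta-glucosidases included PYK10, which fills ER bodies, a store of defence enzymes derived from the endoplasmic reticulum. PYK10 gave 187, 259.7 and 153 in the untreated knockout and 597, 349 and 479 in the untreated overexpressor. NAI2, needed to form ER bodies, gave 62.0, 57.4 and 58.2 in the knockout and 224, 240.2 and 247 in the overexpressor. Both were apart between the lines in both lights, by 1.17 ± 0.26 and 1.79 ± 0.21 (adjusted p = 0.00497 and 3.89e-05). Within each light PYK10 was called in untreated leaves (1.25) but not after high light (1.09). All 4 kept jacalin-related lectins, of which several bind PYK10 aggregates, were higher: JAL23 by 1.42, JAL22 by 1.08, JAL33 by 0.82 and JAL34 by 0.76. In untreated leaves 1 of the 4 lectins was called higher, against 7.26% of all probe sets, and after high light all 4, against 8.45%. With quantile normalization or with all 30 arrays 3 of the 4 lectins were called after high light. Their probe sets may share transcripts where the lectin sequences are alike. PYK10 was also the 1 measured member of the root marker list of 5 genes, and the part of root tissue in these samples was not tested.

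Sugar transporters of the SWEET family were split. Of 12 kept members 3 were higher and 3 lower in the overexpressor, 50% called against 25.2% of all probe sets. SWEET1, a glucose transporter of the plasma membrane, gave 630.3, 641 and 751 in the untreated knockout and 186, 309.8 and 279.7 in the untreated overexpressor. With high light the signals were 2214, 1869 and 2179 in the knockout and 888, 516 and 652 in the overexpressor, a difference of -1.52 ± 0.15 over both lights (adjusted p = 7.7e-06). SWEET1 was higher on every high light array than on any untreated array of the same line, and the lines were apart in both lights. SWEET11, a sucrose exporter that feeds the phloem, was lower, with a difference of -0.76 ± 0.15 in untreated leaves (adjusted p = 0.00432) and had -0.23 ± 0.15 after high light (adjusted p = 0.339). The 3 higher members, SWEET2, SWEET16 and SWEET17, are carriers of the vacuole membrane. SWEET17 was at 1045, 1002 and 1016 in the knockout and 2612, 3607 and 3746 in the overexpressor after high light, and SWEET2 at 134, 154 and 142 in the knockout against 329, 373 and 397 in the overexpressor in untreated leaves. Their differences over both lights were 1.12 ± 0.10 and 1.13 ± 0.09, and that of SWEET16 was 0.78 ± 0.21. The difference of SWEET17 was 0.55 in untreated leaves (limma adjusted p = 0.0209) and 1.68 after high light (adjusted p = 6.37e-06). It was the 1 kept SWEET member with a called difference of responses.

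Methionine sulfoxide reductases, which repair oxidised methionine in proteins, included 1 of the strongest differences among bright genes. MSRB5 gave 583, 399.8 and 321 in the untreated knockout and 2238, 2268 and 2889 in the untreated overexpressor. Under high light it was at 131, 355 and 272 in the knockout and 2179, 3322 and 3909.5 in the overexpressor, a difference of 3.12 ± 0.23 over both lights (adjusted p = 7.94e-07). Its neighbour in the genome MSRB6 was higher by 1.24 ± 0.12, whereas MSRB3 was lower, with a difference of -0.30 ± 0.10, a call lost with no filter, with the replicate block and without any 1 of 9 arrays (all but knockout high light replicate 1, knockout untreated replicate 2 and overexpressor high light replicate 1), with -0.33 to -0.24 over the arrays left out. All MSRB5 and MSRB6 arrays of the overexpressor lay above those of the knockout in the same light. The difference of MSRB6 was smaller after high light than in untreated leaves, with a called difference of responses of -1.325. No other of the 4 kept reductases had a called difference of responses. Glutathione transferases, which conjugate glutathione to toxic compounds, were split, with 2 of 6 higher and 2 lower, against 12.6% and 12.7% of all probe sets. GSTU18, which was lower (-0.25), lost its call with all 30 arrays (limma adjusted p = 0.0876), which leaves 1 lower. It also lost its call without the variance trend (adjusted p = 0.0696). GSTU16 was the steadiest of the 6, at 127, 133 and 131 in the knockout against 353, 282 and 318 in the overexpressor in untreated leaves (1.09 ± 0.16 over both lights, adjusted p = 0.000204).

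In photosynthesis, the antenna protein genes of photosystem II called LHCB4 went in different directions. LHCB4.3 gave 4220.2, 3414 and 4767 in the untreated knockout and 2260.5, 2059.9 and 1636 in the untreated overexpressor. After high light it gave 6172, 6319 and 6277 in the knockout and 1732, 1616 and 2136 in the overexpressor, and the difference was -1.42 ± 0.11 (adjusted p = 8.11e-07). LHCB4.2 was higher in the overexpressor by 0.50 ± 0.08 (adjusted p = 0.000316), and LHCB4.1 had -0.05 ± 0.07 (adjusted p = 0.645). Of 11 kept nuclear photosynthesis genes LHCB4.3, LHCB4.2 and PSBY, a small photosystem II protein (-0.28), were called, 27.3% against 25.2% of all probe sets, and the median was -0.13. PSBY lost its call with no filter (adjusted p = 0.0665), without the variance trend (adjusted p = 0.0576) and without any 1 of 2 arrays (overexpressor untreated replicates 2 and 3), with -0.32 to -0.22 over the arrays left out. Of 69 plastid-encoded probe sets 1 was higher and 6 lower, 10.1% called against 25.2% of all probe sets. The one that was higher, ccsA, an assembly factor of c-type cytochromes, gave 4590.4, 4387 and 6691 in the untreated knockout and 11739, 9209 and 14155 in the untreated overexpressor (1.32 ± 0.12). Of 17 mitochondrion-encoded probe sets 2 were higher and 3 lower, 29.4% called, close to the 25.2% over all probe sets. Among the lower ones was cox1, a subunit of cytochrome c oxidase (-1.15 ± 0.17).

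Among RNA polymerase subunits of the NRPB series, 5 of 6 were lower in the overexpressor and none was higher, with a median of -0.62. Over all probe sets 12.7% were lower. In untreated leaves 2 of the 6 were called lower, against 6.6% of all probe sets, and after high light 4, against 7.46%. The largest differences over both lights were those of NRPB9A (-1.47 ± 0.27) and NRPB9B (-1.18 ± 0.12), which encode versions of the same subunit. NRPB9B gave 409, 334 and 393 in the untreated knockout and 175, 175 and 166 in the untreated overexpressor, without overlap, and the same held after high light. Of 10 autophagy genes 4 were lower and 1 higher, all by less than 0.5. That is 50% called, against 25.2% of all probe sets. Of 12 ubiquitin-specific proteases none was called over both lights, against the same 25.2%, with differences from -0.18 to 0.37. Trichome birefringence-like proteins, which acetylate cell wall sugars, had 6 of 16 members higher and 1 lower, and serine carboxypeptidase-like proteins 6 of 18 higher and 1 lower, against 12.6% higher and 12.7% lower over all probe sets. TRY, a small MYB protein that suppresses leaf hair formation, was lower, with a difference of -2.32 ± 0.14 (adjusted p = 1.77e-07). It gave 206, 172 and 215 in the untreated knockout and 50.7, 46.5 and 34.2 in the untreated overexpressor. High light arrays gave 407, 355 and 369 in the knockout and 67.3, 59.3 and 74.3 in the overexpressor, again without overlap. QQS, a regulator of starch content, was higher by 4.63 ± 0.46 and gave 332, 501 and 1304 in the overexpressor after high light against 36.6, 5.04 and 31.5 in the knockout. PIP, a proline iminopeptidase, was higher by 2.24 ± 0.09, and the beta-tubulin TUB1 was lower, with a difference of -1.05 ± 0.18. The remaining lists had few kept members: 1 of 5 cell wall expansion genes was lower, EXPA15 (-1.01, adjusted p = 0.049), a call lost with no filter (adjusted p = 0.0605), without the variance trend (adjusted p = 0.077) and without any 1 of 9 arrays (all but knockout high light replicate 2, knockout untreated replicate 2 and overexpressor high light replicate 1), with -1.32 to -0.78 over the arrays left out. Neither of 2 auxin genes, nor the clock gene GI (0.01), nor UGT74B1 of indole glucosinolate synthesis (-0.02) was called over both lights.

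The lines were also compared within each light. The arrays of the 2 lights are not shared, but the same fit gave both comparisons a common variance. Calls in the 2 lights are therefore not independent. Without knockout high light replicate 3, for example, the untreated count was 1922 instead of 2207. In untreated leaves 2207 probe sets were called (13.9%), 1156 higher (7.26%) and 1051 lower (6.6%) in the overexpressor. After high light 2533 were called (15.9%), 1345 higher (8.45%) and 1188 lower (7.46%). Of the probe sets called higher in untreated leaves 93.5% had the same sign after high light and 61.8% were called the same way there. Of those called lower, the shares were 89.4% and 46.4%. Calls in opposite directions in the 2 lights were made for 4 and 7 probe sets. In all, 1213 probe sets were called in both lights, 994 in untreated leaves alone and 1320 in high light alone, which does not by itself show that the lights differ.

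**Figure D3:**
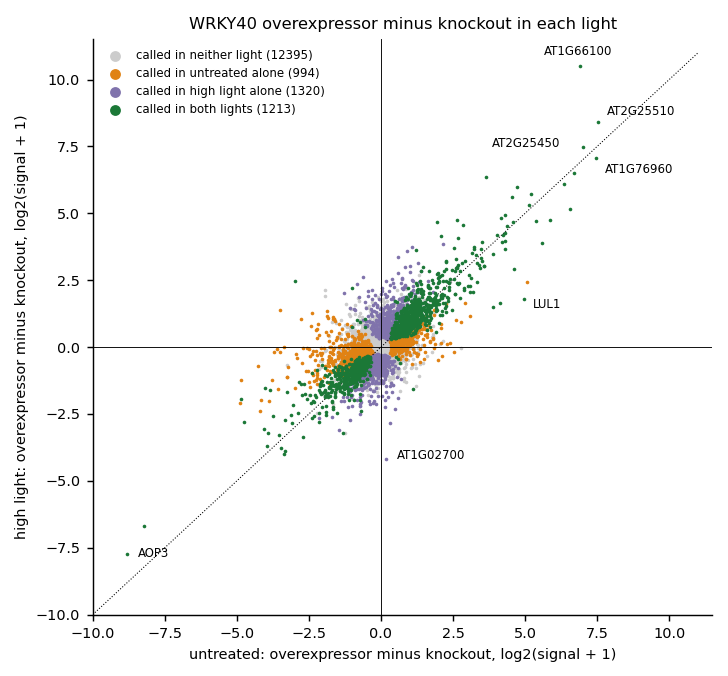
Each point is 1 of 15922 probe sets, with the log2 difference of overexpressor minus knockout in untreated leaves on the horizontal axis and after high light on the vertical axis; colours give the light in which limma called it, and the dotted line marks equal differences. Most of the 1213 probe sets called in both lights lie along that line, and AT1G02700 and LUL1 are among those away from it.

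The next genes were named for the largest differences within 1 light among those not already named. The rule did not require that the other light differ. LUL1, a ubiquitin ligase, gave 4.78, 6.72 and 29.6 in the untreated knockout and 384, 345 and 312 in the untreated overexpressor, a difference of 4.97 ± 0.45 (adjusted p = 1.23e-05). The treated leaves gave 129.6, 107 and 107 in the knockout and 368, 385 and 436 in the overexpressor. The overexpressor arrays spanned a similar range in both lights while all knockout arrays were brighter after high light, but the difference of responses missed the threshold (-3.18 ± 0.64, adjusted p = 0.055). The other genes named for untreated leaves were AT5G41140 (4.63) and AT4G01130 (509, 416 and 449.7 against 6.25, 41.2 and 39.7 in the knockout), both higher, together with QQS (4.31). Lower in the untreated overexpressor were AT4G19240 (-4.89), AT2G29170 (-4.77), AT4G16260 (-4.28) and AT2G43590 (-4.20). After high light AT5G37230 (-2.83), AT2G20720 (-2.64) and AT2G18210 (-2.52) were lower in the overexpressor, and AT4G20480 (4.26) was higher. The probe set of AT5G37230 can also bind transcripts of related genes. The call of AT2G20720 was lost without any 1 of 2 arrays (overexpressor high light replicates 2 and 3), with -2.91 to -2.44 over the arrays left out.

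Whether the response to high light itself differed was tested as an interaction, and limma called 63 probe sets (0.396%). The response was higher in the overexpressor for 37 and lower for 26. At an unadjusted p under 0.05 there were 1757. The sign of the line difference was opposite in the 2 lights for 20 of the 37 and 14 of the 26. The number of calls rested on single arrays: it was 200 without overexpressor high light replicate 1 and 20 without knockout high light replicate 3.

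AT1G02700 gave the clearest interaction. It gave 37.4, 22.5 and 51.7 in the untreated knockout and 36.1, 42.4 and 41.3 in the untreated overexpressor, and after high light it gave 2822, 3126 and 2972 in the knockout and 136, 175 and 173 in the overexpressor. The difference of responses was -4.37 ± 0.35 (adjusted p = 9.92e-05). Every high light array lay above every untreated one, with the knockout far above the overexpressor. AT1G54050 was at 27568, 23329.9 and 21785 in the knockout and 19558, 18317 and 19944 in the overexpressor after high light, against 182, 221 and 182 in the knockout and 1019, 584 and 994 in the overexpressor in untreated leaves. The overexpressor was above the knockout before treatment and below it after, without overlap in either light. The high light difference was -0.32 ± 0.18 and was not called (adjusted p = 0.267), and the difference of responses was -2.43 ± 0.26 (adjusted p = 0.00112). AT2G21860 was apart in untreated leaves and overlapped after high light, with 327, 262 and 284 in the untreated knockout, 1212, 1502 and 1268 in the knockout after high light, and 1598, 1316 and 1337 and 1572, 1345 and 1401 in the overexpressor. Its difference of responses was -2.16 ± 0.19 (adjusted p = 0.000155). These 3 of the 12 genes named for their interaction were called whichever array was left out, and the other 9 were not.

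**Figure D4:**
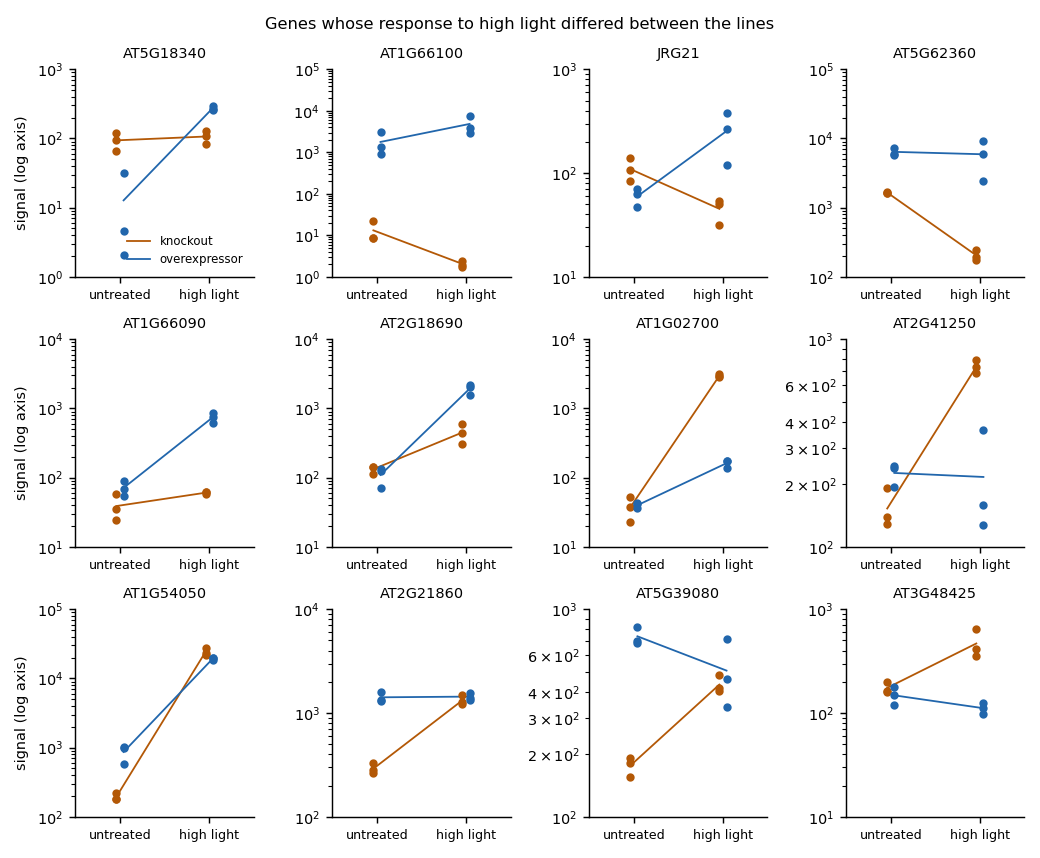
Signal on a log axis in untreated and high light leaves for the 12 genes named for their interaction; points are arrays and lines join the means of 3 in the knockout and in the overexpressor. AT1G02700, AT1G54050 and AT2G21860 kept their call whichever array was left out, and AT2G41250 in the overexpressor shows replicate 1 above its companions after high light.

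Of the other genes with a called interaction, AT2G18690 was at 2184, 2024 and 1579 in the overexpressor against 310.0, 606 and 436 in the knockout after high light, and at 134, 124 and 69.9 against 141, 113 and 144 in untreated leaves. Its difference of responses was 2.46 ± 0.38 (adjusted p = 0.0157), a call lost without any 1 of 3 arrays (knockout high light replicate 3 and knockout untreated replicates 1 and 3), with 2.17 to 2.70 over the arrays left out. AT1G66090 reached 864, 611 and 756 in the overexpressor after high light, whereas the knockout gave 61.4, 58.8 and 61.4 (2.67 ± 0.42, adjusted p = 0.0179). It lost its call without any 1 of 2 arrays (knockout high light replicate 3 and overexpressor high light replicate 3), with 2.35 to 2.96 over the arrays left out. AT5G62360 was at 1651, 1626 and 1684 in the untreated knockout and 195, 242 and 176 after high light, and was at 5859, 6001 and 7370.5 and 2430.0, 9298 and 6010.1 in the overexpressor (2.71 ± 0.48, adjusted p = 0.0324). It lost its call without any 1 of 10 arrays (all but overexpressor high light replicates 1 and 2), with 2.29 to 3.25 over the arrays left out. JRG21, a gene named for its regulation by jasmonate, had a difference of responses of 3.20 ± 0.55 and overexpressor values of 118, 377 and 267 after high light. AT2G41250 went the other way (-2.49 ± 0.43), with 790.4, 686 and 736 in the knockout and 365, 158 and 128 in the overexpressor after high light. With quantile normalization (adjusted p = 0.0512), all 30 arrays (0.1004) or no variance trend (0.0523) JRG21 was not called. It also lost its call without any 1 of 8 arrays (all but knockout high light replicate 2, knockout untreated replicate 2, overexpressor high light replicate 1 and overexpressor untreated replicate 1), with 2.84 to 3.67 over the arrays left out, and AT2G41250 without any 1 of 10 arrays (all but knockout untreated replicate 1 and overexpressor high light replicate 1), with -2.95 to -2.19 over the arrays left out.

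Of 24 heat shock genes on the list 7 had a kept probe set, and over both lights 1 was higher and 1 lower in the overexpressor. That share of called genes, 28.6%, was close to the 25.2% over all probe sets. The higher one, AT2G29500 (0.64 ± 0.13), was not called with all 30 arrays (adjusted p = 0.0561). HSA32, a protein that prolongs acquired heat tolerance, gave 7535, 7995 and 12415 in the knockout and 4675, 3872 and 5313 in the overexpressor after high light. The groups did not overlap there, and the difference was -0.99 ± 0.19 in high light (adjusted p = 0.00338). Hop3, a co-chaperone, gave 8675, 7503 and 7226 in the knockout and 12235, 11092 and 12380.2 in the overexpressor, also apart, but was not called (0.61 ± 0.20, adjusted p = 0.054). AT2G29500 was at 19.5, 16.6 and 24.3 in the untreated knockout and 38.0, 55.3 and 68.3 in the untreated overexpressor, and the lines overlapped after high light, at 30700.3, 28471 and 26629.7 in the knockout and 25819, 29305 and 27088 in the overexpressor. The other 4, AT1G53540, AT1G52560, ATHSP22.0 and AT5G48570, had differences of -0.13, -0.57, 0.25 and 0.01, none of them called. Of probe sets higher in the overexpressor 19.4% were raised by light over both lines and 39.1% lowered, and of those lower in the overexpressor 25.9% were raised and 39.1% lowered. Over all probe sets light raised 17.3% and lowered 36.8%.

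Called genes were spread over all chromosomes, and a stretch of chromosome 1 held the highest share. On chromosomes 1 to 5 the shares of genes called over both lights were 25.3%, 22.7%, 23.8%, 26.9% and 24.6%. In 169 windows of 50 successive kept genes the share called ran from 8% to 60%, with a median of 24%, and the share called at least 2-fold from 0% to 26%, with a median of 6%. The window from AT1G65270 to AT1G67060 held the highest values of both, with 30 genes called and 13 of them at least 2-fold, 8 higher and 5 lower in the overexpressor. AT1G66090, AT1G66100 and LUP5 (AT1G66960), a gene of the triterpene synthase family that was lower, with a difference of -1.55 ± 0.26, lie in it. The next window by genes called at least 2-fold, from AT4G15800 to AT4G16830, held 21 called genes, 10 of them at least 2-fold, among them SWEET17 and NRPB9B.

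**Figure D5:**
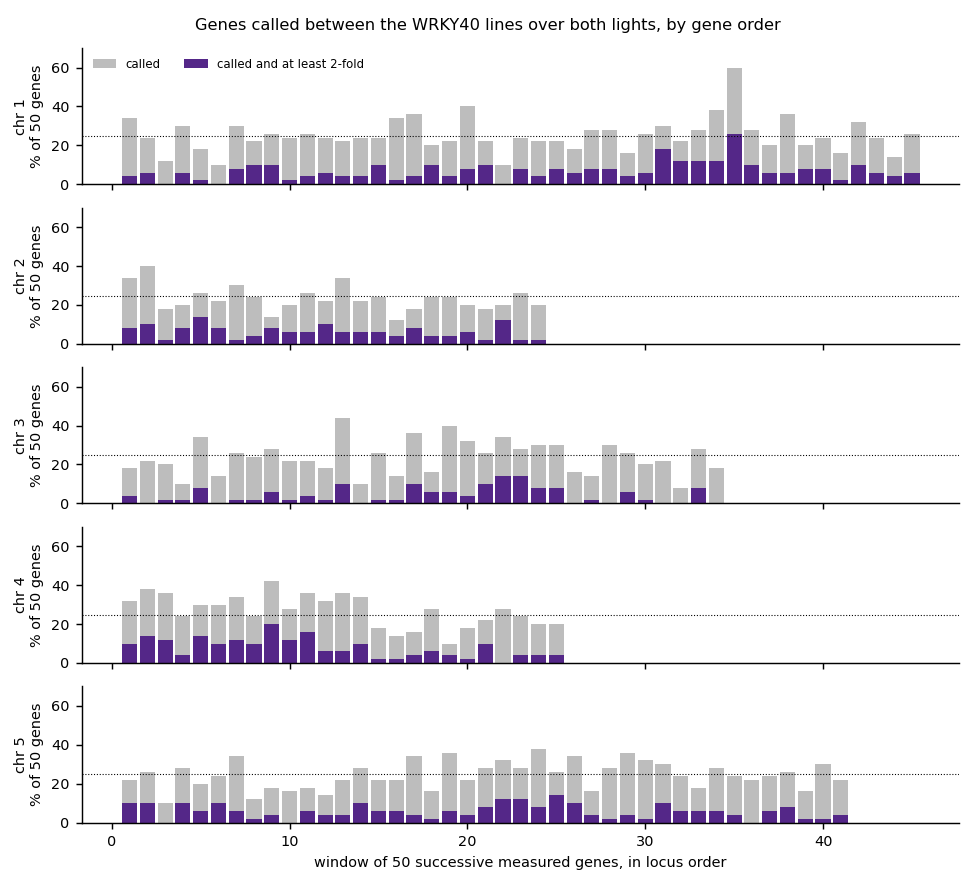
Share of genes called between the lines over both lights (grey) and called at least 2-fold (purple) in windows of 50 successive kept genes, in locus order along each chromosome; the dotted line is the share over all 8584 genes, 24.7%. The tallest bar, on chromosome 1, stands at 60% called and 26% at least 2-fold.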

How the data were processed

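Signals of the 12 arrays were taken from the deposited table, which holds the authors' linear signal intensity of each probe set, computed by MAS5 per the submitters' processing notes. The MAS5 version is not given in the sources used here. The arrays shared a trimmed mean, and no detection calls were used. After a pseudocount of 1 and log2, control probe sets (64 of 22810) and those with a mean under the 30th percentile (signal 48.7) were left out, which kept 15922. limma 3.58.1 in R 4.3.3 fitted 4 group means with a trend in variance, and calls were made at an adjusted p (Benjamini-Hochberg) under 0.05. On simulated data the fit recovered 80% of planted log2 differences of 1 and 98% of differences of 2 over both lights, and 23% and 77% for the interaction. The number of arrays, 3 per group, limits precision.

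Gene names came from the platform annotation and the TAIR10.1 gene table, and of those kept 8772 name 1 gene, 320 several and 6830 none here. Named genes were the 10 largest differences each way over both lights among called genes whose groups did not overlap and whose higher line had a mean of at least 200, the next 4 each way within each light, the 6 largest each way for the interaction, and up to 3 called members each way of each list. AOP3, NDB2 and AT2G21640 were named in any case. The comparison, the lists and the rule were chosen with earlier results of these data known, and families by symbol were drawn up after the values were seen. Promoter motifs were not analysed here. Alternatives were quantile normalization, a pseudocount of 16, other filters, all 30 arrays, no variance trend, a replicate block and each array left out.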

Additional observations from a re-analysis of the deposited data

Results flagged for a closer look

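The difference between the lines changed with light, by limma's interaction, for 14 of the genes named by the rule. MSRB6 and SWEET17, described above, also had a called interaction and are not among the 14. Values are the difference of overexpressor minus knockout in high light less that in untreated leaves. For genes whose difference moved up, the values were 4.86 for AT5G18340, 3.60 for AT1G66100, 3.20 for JRG21, 2.71 for AT5G62360, 2.67 for AT1G66090, 2.46 for AT2G18690 and 2.25 for AT1G13470. For genes whose difference moved down, they were -4.37 for AT1G02700, -2.49 for AT2G41250, -2.43 for AT1G54050, -2.16 for AT2G21860, -1.90 for AT5G39080, -1.77 for AT3G48425 and -1.41 for AT2G29500. Apart from leaving out single arrays, AT2G18690, AT1G02700, AT1G54050 and AT2G21860 kept their call under every alternative. AT1G66100 had 2.16 with a pseudocount of 16 and was not called (adjusted p = 0.124), nor was it without the variance trend (adjusted p = 0.0699). Without the variance trend AT5G18340, JRG21, AT5G62360, AT1G13470, AT2G41250, AT5G39080, AT3G48425 and AT2G29500 were not called either. AT5G18340, AT1G13470 and AT3G48425 were not called with no filter, and JRG21, AT1G66090, AT1G13470 and AT2G29500 with all 30 arrays. JRG21 was not called with quantile normalization, and AT2G29500, at -0.99, with a pseudocount of 16. AT1G13470 was lower in the overexpressor in both lights, by a smaller difference in high light (-3.84 untreated and -1.59 in high light).

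AT5G18340 crossed over, with 119, 96.1 and 66.5 in the untreated knockout against 2.06, 31.6 and 4.56 in the untreated overexpressor, and 82.5, 129.7 and 108 against 297, 259 and 268 after high light. With a pseudocount of 16 its value was 3.31, since the untreated overexpressor was near the bottom of the scale. AT3G48425 gave 354, 640.1 and 409.7 in the knockout and 124, 112 and 97.3 in the overexpressor after high light, while the untreated lines overlapped. AT5G39080 was higher in the untreated overexpressor, at 706, 690.1 and 826 against 155, 192 and 182, and the lines overlapped after high light.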

How the results depend on the processing

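None of the 73 named results was reversed. RCA, which was not called, had -0.10 over both lights in the main fit and 0.01 with quantile normalization. Of 481 values of 73 named results under other settings than leaving out an array, 454 kept their call and 27 lost it, and of 861 values with 1 array left out, 737 kept it, 123 lost it and 1 gained it. The number called for the interaction moved from 63 to 137 when all 30 arrays were fitted and to 28 without the variance trend; with 1 array left out it ran from 20 to 200. For the other comparisons those ranges were 3326 to 4261 over both lights, 1397 to 2481 untreated, 1703 to 2676 in high light and 7962 to 8701 for light. The 1397 came without overexpressor untreated replicate 3, against 2207 with it. For the interaction the count moved by more than 1.5 times without knockout high light replicate 1 (37), 2 (34) or 3 (20), knockout untreated replicate 1 (28) or 3 (27), overexpressor high light replicate 1 (200), 2 (39) or 3 (33), and overexpressor untreated replicate 3 (31). The cause was not tested. Low signals without detection calls limit the large differences, as the values with a pseudocount of 16 show.

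The labels give no basis for pairing by replicate number. Deviations of same-numbered arrays correlated at 0.034 to 0.154 between the untreated lines, against -0.133 to 0.057 for other numbers, and at 0.052 to 0.291 against -0.239 to 0.081 after high light. Not every same-numbered pair exceeded 0.1, so the numbers were not taken as pairs. With the replicate number as a block, 4003 probe sets were called over both lights, 2096 untreated, 2402 in high light, 66 for the interaction and 8568 for light, and the interaction of AT1G66100 lost its call (adjusted p = 0.0524).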

Other observations

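Histone, hormone and growth genes that stand outside the lists were also among the 70 genes with a symbol called at least 2-fold. HTB2, a histone H2B, gave 628, 717 and 639 in the untreated knockout and 1503, 1789.6 and 1632 in the untreated overexpressor, and was higher by 1.06 ± 0.11 over both lights (limma adjusted p = 1.88e-05). BIM1, a partner of brassinosteroid transcription factors, was higher by 1.05 ± 0.15, with no overlap in either light. MYC4, a transcription factor of the jasmonate pathway, was higher by 1.05 ± 0.27, with groups that overlapped after high light. AGL42, a MADS-box factor, was lower, with a difference of -1.26 ± 0.27, and the pectin methylesterase ATPMEPCRB was lower too, with -1.83 ± 0.24. NET4B, an actin-binding protein, gave 75.9, 87.3 and 47.6 in the untreated knockout and 366, 338 and 361 in the untreated overexpressor, and was higher by 2.38 ± 0.16 (adjusted p = 4.29e-07).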
